A study of Homo sapiens with 12 samples.

Results

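The genes of cholesterol and fatty acid synthesis were followed in HEK293, a human embryonic kidney cell line, with and without induction of the transcription factor RPF-1. The set held 28 genes chosen by symbol, and a probe was used if its detection p was under 0.05 on at least 3 arrays. Of these, 27 were named by a probe and FDFT1, which makes squalene, was not analysed here. They carried 34 probes, of which 32 passed the detection filter, and all 27 genes kept a probe detected on all 12 arrays. The filter therefore removed no gene of the 27, which stood among 11824 genes with a symbol and 13228 tested features in all. Each group had 3 arrays of total RNA after 48 h of culture. The Mock line was a control transfectant, kept with tetracycline (Mock Tet+) or without it (Mock Tet-). The RPF1 line was a stable transfectant holding RPF-1 cDNA in the Tet-off vector pTRE2puro, uninduced with tetracycline (RPF1 Tet+) or induced without it (RPF1 Tet-). The labels do not say whether a line is a single clone, so a difference between the lines cannot be told apart from one between clones. They do not say either whether replicates are separate cultures, so p-values may measure technical spread only. In bulk RNA, fewer cells of a kind and less RNA per cell cannot be told apart.

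Cholesterol is built from acetyl-CoA through mevalonate, isoprenoid diphosphates, squalene and lanosterol. Fatty acids are built from citrate-derived acetyl-CoA, then lengthened and desaturated. Sterol regulatory element-binding proteins, encoded by SREBF1 and SREBF2, switch on genes of both routes when membrane sterol is low, and INSIG1 holds their precursors in the endoplasmic reticulum when sterol is high. INSIG1 is itself one of their targets, so it is a common readout of the pathway's state in cultured cells.

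Promoters of the set are shown first because the genes are known as targets of one family of factors. RefSeq (GRCh38.p14) gave a window from 250 bases before to 50 bases after the start for 24 of the 28 genes, 31 windows in all, since 6 genes had more than 1 start and their windows can share sequence. Shown are PMVK (chr1:154936670-154936969, minus strand), the gene called lower after induction. SREBF2 (chr22:41832855-41833154, plus strand) is the gene with a sterol regulatory element match. INSIG1 (chr7:155297628-155297927, plus strand) and MSMO1 (chr4:165327419-165327718, plus strand) were among the genes that varied most between arrays in the data below. All 4 were chosen after their values were seen. Capitals mark the sterol regulatory element pattern (TCACNCCAC), the CCAAT box (CCAAT) and the GC box (GGGCGG) on either strand, overlapping matches included.
PMVK: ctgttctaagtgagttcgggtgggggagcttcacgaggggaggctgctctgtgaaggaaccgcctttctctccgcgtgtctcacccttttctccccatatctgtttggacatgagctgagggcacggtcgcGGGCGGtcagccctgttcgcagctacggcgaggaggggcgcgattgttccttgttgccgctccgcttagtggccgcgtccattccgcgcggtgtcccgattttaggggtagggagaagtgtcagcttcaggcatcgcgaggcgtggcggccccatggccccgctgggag
SREBF2: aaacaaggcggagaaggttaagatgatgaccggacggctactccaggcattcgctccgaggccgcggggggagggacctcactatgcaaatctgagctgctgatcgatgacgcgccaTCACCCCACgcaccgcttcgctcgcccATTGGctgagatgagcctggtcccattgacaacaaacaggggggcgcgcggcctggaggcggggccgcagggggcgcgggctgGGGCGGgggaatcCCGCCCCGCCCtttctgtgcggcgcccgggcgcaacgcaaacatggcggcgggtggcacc
INSIG1: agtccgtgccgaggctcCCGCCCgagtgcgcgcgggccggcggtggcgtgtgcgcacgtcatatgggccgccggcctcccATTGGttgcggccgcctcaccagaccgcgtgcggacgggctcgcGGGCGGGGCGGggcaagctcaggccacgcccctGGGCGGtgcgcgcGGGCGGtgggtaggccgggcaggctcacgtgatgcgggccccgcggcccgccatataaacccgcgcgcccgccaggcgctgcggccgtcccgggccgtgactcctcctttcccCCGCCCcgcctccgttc
MSMO1: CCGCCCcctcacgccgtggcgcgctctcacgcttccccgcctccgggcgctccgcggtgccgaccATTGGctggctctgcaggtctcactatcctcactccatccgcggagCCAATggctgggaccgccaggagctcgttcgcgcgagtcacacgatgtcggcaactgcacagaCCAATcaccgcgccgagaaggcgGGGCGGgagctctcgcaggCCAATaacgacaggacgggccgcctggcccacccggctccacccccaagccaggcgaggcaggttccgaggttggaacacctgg

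The PMVK window held 1 GC box and neither of the other marked patterns. SREBF2 held 1 sterol regulatory element match, 1 CCAAT box and 3 GC boxes, INSIG1 held 1 CCAAT box and 6 GC boxes, and MSMO1 held 4 CCAAT boxes and 2 GC boxes. A CCAAT box was found in 22 of the 31 windows (71%), beside 34.6% of all 35116 windows of the table. A GC box was found in 28 of them (90.3%), beside 45% of all windows. The sterol regulatory element pattern was in 1 window (3.23%, beside 1.13%), and the E-box pattern CANNTG in 17 (54.8%, beside 68.7%). A match is a description of letters, not a site in use, and a missing match says only that these letters are not in this window.

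Values are log2 signals after background correction and quantile normalization, and every log2 change comes from 1 limma fit of all 12 arrays. A feature was called at an adjusted p under 0.05 over all 13228 features. Between 13568 and 14493 probes were detected per array, raw medians lay between 276.5 and 357.2, and arrays of a group correlated across genes at 0.989 to 0.996, where genes do not count as replicates. Precision was limited by the number of arrays. They lay on 3 chips: Mock Tet+ 1 and 2 lay on the first, RPF1 Tet- 2 and 3 on the third, and the other 8 on the second. Where a fixed chip block changes a call, its value is given, and that of the second chip alone is given for genes of the set. In both fits Mock Tet+ rests on its array 3 alone and RPF1 Tet- on its array 1 alone, the array on which the set was lowest in its group. The lone array is then assumed to vary like the other groups, so a call kept or gained in these fits is the value of 1 array and no check against the chip. Of 7 HEK293 markers, 6 were detected on all 12 arrays and INA on none. Hepatocyte markers were near absent: 4 of 5 were detected on 0 arrays and ALB on 1. Of the adipocyte markers ADIPOQ, PLIN1 and LEP were detected on 0 arrays, FABP4 on 3 and CIDEC on 12. Of steroid-making cells, CYP17A1 and STAR were detected on 0 arrays, HSD3B2 on 2 and CYP11A1 on 9. Of blood cells, CD3E and CD14 were detected on 0 arrays and PTPRC on 9. The part of such cells in the results was not tested.

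Before the groups are compared, the genes' spread within each group is described, since it was wide for many of them in the RPF1 line. The median within-group SD of the 27 genes was 0.202 (log2), against 0.152 over all features, and 21 of the 27 lay above the features' median. INSIG1 had an SD of 0.432, at the 99.2nd percentile of all features. It read 12.99, 12.42 and 13.61 on RPF1 Tet+ arrays 1 to 3, and 12.63, 13.87 and 13.12 on the RPF1 Tet- arrays. The same gene read 12.86, 12.99 and 12.85 in Mock Tet+ and 12.97, 12.92 and 13.02 in Mock Tet-. Thus RPF1 Tet+ 3 and RPF1 Tet- 2 were high and RPF1 Tet+ 2 and RPF1 Tet- 1 were low, while all 6 Mock arrays lay between them. The range between arrays was 1.18 in RPF1 Tet+ and 1.23 in RPF1 Tet-, against 0.13 and 0.10 in the Mock groups.

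IDI1, the isomerase that makes the reactive isoprenoid unit, read 11.89, 11.36 and 12.41 in RPF1 Tet+ and 11.40, 12.36 and 11.82 in RPF1 Tet-. Its Mock arrays read 11.73, 11.49 and 11.53 with tetracycline and 11.47, 11.48 and 11.65 without. Within each RPF1 group the order of the arrays was that of INSIG1, and the range reached 1.05 in RPF1 Tet+. MSMO1, a methylsterol oxidase, read 12.95, 12.54 and 13.18 in RPF1 Tet+ and 12.39, 13.45 and 12.82 in RPF1 Tet-. In Mock Tet+ it read 12.88, 12.99 and 12.70, and in Mock Tet- 12.97, 12.72 and 12.90. Its widest range was 1.05, in RPF1 Tet-, with the same high and low arrays. SREBF1 read 8.64, 8.26 and 8.85 in RPF1 Tet+ and 7.78, 8.86 and 8.49 in RPF1 Tet-, a range of 1.08 in the latter. In Mock Tet+ SREBF1 read 9.06, 9.26 and 8.81 and in Mock Tet- 9.25, 8.88 and 9.13.

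HSD17B7, a sterol ketoreductase, ranged over 0.94 in RPF1 Tet-, and TM7SF2, a sterol reductase, over 0.92. HSD17B7 has a near-identical pseudogene copy, so its signal is uncertain. STARD4, a carrier of cholesterol between membranes, had its widest range, 0.81, in Mock Tet+. At the other end, EBP, a sterol isomerase, had a within-group SD of 0.069, ACLY, which makes acetyl-CoA from citrate, 0.073, and ACAT2, an acetyl-CoA thiolase, 0.088. The spread was therefore not shared evenly over the pathway. A range wider in the RPF1 groups than in the Mock groups was as common here (17 of 27, 63%) as over all features (63.4%).

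Likeness to INSIG1 was measured as the correlation, over 12 arrays, of deviations from group means. It is a description without a test, since the genes share the arrays and their normalization. INSIG1 deviated by -0.584 and 0.601 on RPF1 Tet+ 2 and 3 and by -0.574 and 0.66 on RPF1 Tet- 1 and 2. On every other array its deviation was at most 0.086 in size, so r rests mainly on those RPF1 arrays. The median r of the other 26 genes was 0.614, against -0.01 over all features, and 22 of 26 (84.6%) lay above 0, against 49.4%. IDI1 (0.964), MSMO1 (0.946), the stearoyl-CoA desaturase SCD (0.928), TM7SF2 (0.915), the lanosterol demethylase CYP51A1 (0.913) and the fatty acid desaturase FADS1 (0.913) were most like it. FADS2 (0.892), SREBF1 (0.872), FDPS (0.854), the farnesyl diphosphate synthase, and HMGCS1 (0.849), the synthase that precedes mevalonate, followed. Genes of both the sterol and the fatty acid route were thus among the most alike. FASN, the fatty acid synthase itself, ran the other way (-0.572), and PMVK (-0.25), the elongase ELOVL6 (-0.226) and NSDHL (-0.181), a sterol dehydrogenase, were also below 0. A second INSIG1 probe followed the first (r = 0.934), as did a second MSMO1 probe (0.832). The other 2 LSS probes (0.435 and 0.062) and the other SC5D probe (-0.173) did so less or not at all. Among all features TSPO, a mitochondrial membrane protein, had the highest r (0.974). ACSS2, an acetyl-CoA synthetase outside the set, had an r of 0.96. Other features outside the set lay above ACSS2, among them C14orf93 (0.973), TCEAL7 (0.965), RPL37 (0.964) and TXNIP (0.963). TSPO, ACSS2 and these features were named after their values were seen.

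**Figure D1:**
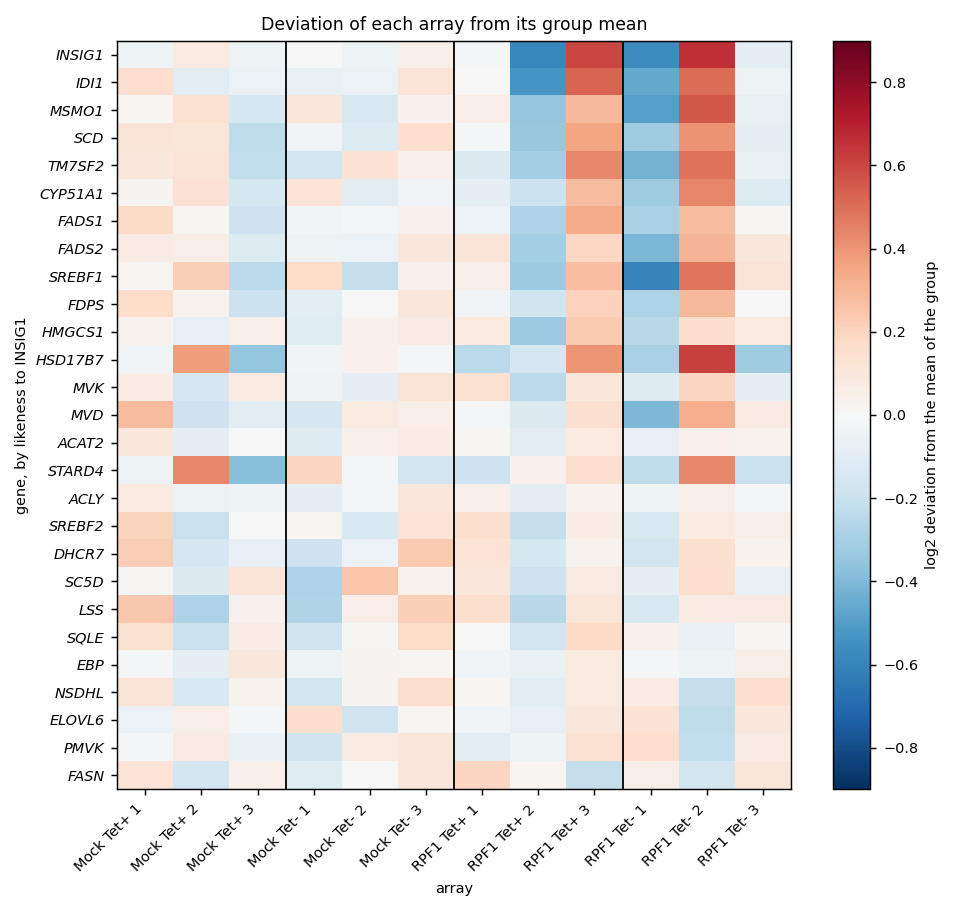
Deviation of each of the 27 genes (rows, ordered by likeness to INSIG1) from the mean of its group on each of the 12 arrays (columns), on a log2 colour scale, with lines between the 4 groups. RPF1 Tet+ 2 and RPF1 Tet- 1 are mostly blue (lower) and RPF1 Tet+ 3 and RPF1 Tet- 2 mostly red (higher). FASN, PMVK, ELOVL6 and NSDHL at the bottom depart from this on RPF1 Tet- 1 and 2, and SQLE does so slightly (0.038 and -0.057). FASN also departs on RPF1 Tet+ 2 (0.021) and 3 (-0.217), STARD4 on RPF1 Tet+ 2 (0.041) and EBP on RPF1 Tet- 2 (-0.04).

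Counted over the set, 26 of 27 genes lay above their group mean on RPF1 Tet+ 3 and 21 on RPF1 Tet- 2, while 2 did so on RPF1 Tet+ 2 and 5 on RPF1 Tet- 1. The share of all features above the group mean was 48.5% to 51.1% on every array. RPF1 Tet+ 2 was the lowest array of its group for 23 genes, against 32.6% of all features, and RPF1 Tet- 1 for 20, against 33.1%. RPF1 Tet+ 3 was the highest for 20 genes (38.7% of features) and RPF1 Tet- 2 for 21 (40.1%). The median deviation of the set was -0.18 on RPF1 Tet+ 2, 0.15 on RPF1 Tet+ 3, -0.23 on RPF1 Tet- 1 and 0.20 on RPF1 Tet- 2. In the Mock groups it stayed between -0.07 and 0.08, although 24 genes lay above the mean on Mock Tet- 3 and 21 on Mock Tet+ 1. The high array RPF1 Tet- 2 had the largest raw median (357.2) and the most probes detected (14493), and the low array RPF1 Tet+ 2 the fewest (13568). The low array RPF1 Tet+ 2 had a raw median of 312.1, above that of the high array RPF1 Tet+ 3 (304.8), and RPF1 Tet- 1 had 289.1. RPF1 Tet+ 3 had 14091 probes detected and RPF1 Tet- 1 had 13899. All 3 RPF1 Tet+ arrays lay on 1 chip, and RPF1 Tet- 1 lay on another chip than RPF1 Tet- 2 and 3. The parts of depth and chip in the spread were not tested.

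The first comparison, RPF1 Tet- against RPF1 Tet+, asks what changed when RPF-1 was induced. PMVK, the phosphomevalonate kinase, fell and was the only gene of the set that was called. It read 9.94, 9.99 and 10.16 in RPF1 Tet+ and 9.72, 9.34 and 9.64 in RPF1 Tet-, so the groups did not overlap. In Mock Tet+ it read 9.83, 9.92 and 9.78 and in Mock Tet- 9.74, 10.00 and 10.02, and these groups overlapped. The log2 change after induction was -0.465 ± 0.115 (SE; limma adjusted p = 0.0211), or 1.38-fold lower. A chip block gave -0.31 (adjusted p = 0.396), and the second chip alone gave an adjusted p of 0.372. The call was also lost without RPF1 Tet+ 3 (-0.40, adjusted p = 0.0691), without RPF1 Tet- 2 (-0.35, adjusted p = 0.0598) and when only the arrays compared were fitted (adjusted p = 0.0764).

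This 1 call of 27 stood beside 13.4% of all features called, 6.67% higher and 6.72% lower. The log2 change was negative for 22 of the 27 genes (81.5%), against 52% of all features, with a median of -0.17 against -0.01. Leaving out single arrays moved this median between -0.29, without RPF1 Tet+ 2, and -0.11, without RPF1 Tet+ 3 or without RPF1 Tet- 1. With chip as a block, and so with RPF1 Tet- 1 alone for the induced group, 25 of 27 changes were negative with a median of -0.31 and 0 genes were called, beside 3.18% of features. The second chip alone gave the same changes and called 1 gene, MVD, the mevalonate diphosphate decarboxylase, beside 2.76% of features. MVD read 7.86 on RPF1 Tet- 1, against 8.58 and 8.33 on RPF1 Tet- 2 and 3, so its value there (-0.78, limma adjusted p = 0.0474) is that of the low array. At an unadjusted p under 0.05 stood 6 genes, all lower: HMGCS1, PMVK, NSDHL, SC5D, DHCR7 and FASN. Of all 13228 features 3712 did so, 1845 higher and 1867 lower. The groups did not overlap for 6 genes, against 29.4% of all features.

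By role, both genes at the entry had negative changes, -0.08 for ACAT2 and -0.34 for HMGCS1. All 5 genes from mevalonate to farnesyl diphosphate were negative: beside PMVK, MVD had a change of -0.38, FDPS of -0.21, MVK, the mevalonate kinase, of -0.17, and IDI1 of -0.03. The changes of SQLE, the squalene epoxidase, and LSS, the lanosterol synthase, were -0.18 and -0.21. None of these but PMVK passed the test. HMGCS1 was called, as lower, only without RPF1 Tet+ 2. From lanosterol to cholesterol the 8 genes divided evenly by sign. The sterol desaturase SC5D (-0.38), NSDHL (-0.34) and DHCR7 (-0.32), the last reductase, were negative with unadjusted p of 0.0161, 0.0154 and 0.0376 and limma adjusted p of 0.0878, 0.0856 and 0.149. SC5D and NSDHL were called, as lower, with the authors' values or no background correction, and SC5D also with array weights. MSMO1 was at -0.001. HSD17B7 (0.43), CYP51A1 (0.36) and TM7SF2 (0.16) had positive changes that did not pass the test, and with chip as a block these were 0.14, 0.04 and -0.27. EBP was at 0.003, with a 95% interval of -0.16 to 0.17.

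Among the regulators SREBF2 was at -0.03 (95% interval -0.31 to 0.25), SREBF1 at -0.20 (-0.74 to 0.34) and INSIG1 at 0.20 (-0.46 to 0.86). The intervals of SREBF1 and INSIG1 were wide, as their arrays differed most within a group. SREBF1 with a chip block stood at -0.80 and INSIG1 at -0.38, neither called. STARD4 was at -0.01 (-0.48 to 0.47). All 6 fatty acid genes had negative changes, with a median of -0.24: FADS2 -0.35, FASN -0.33, SCD -0.31, FADS1 -0.17, ACLY -0.16 and ELOVL6 -0.16. None of the 6 was called, and FASN alone had an unadjusted p under 0.05 (0.02). FASN was called, as lower, with array weights or without RPF1 Tet+ 3, and under no other alternative run.

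**Figure D2:**
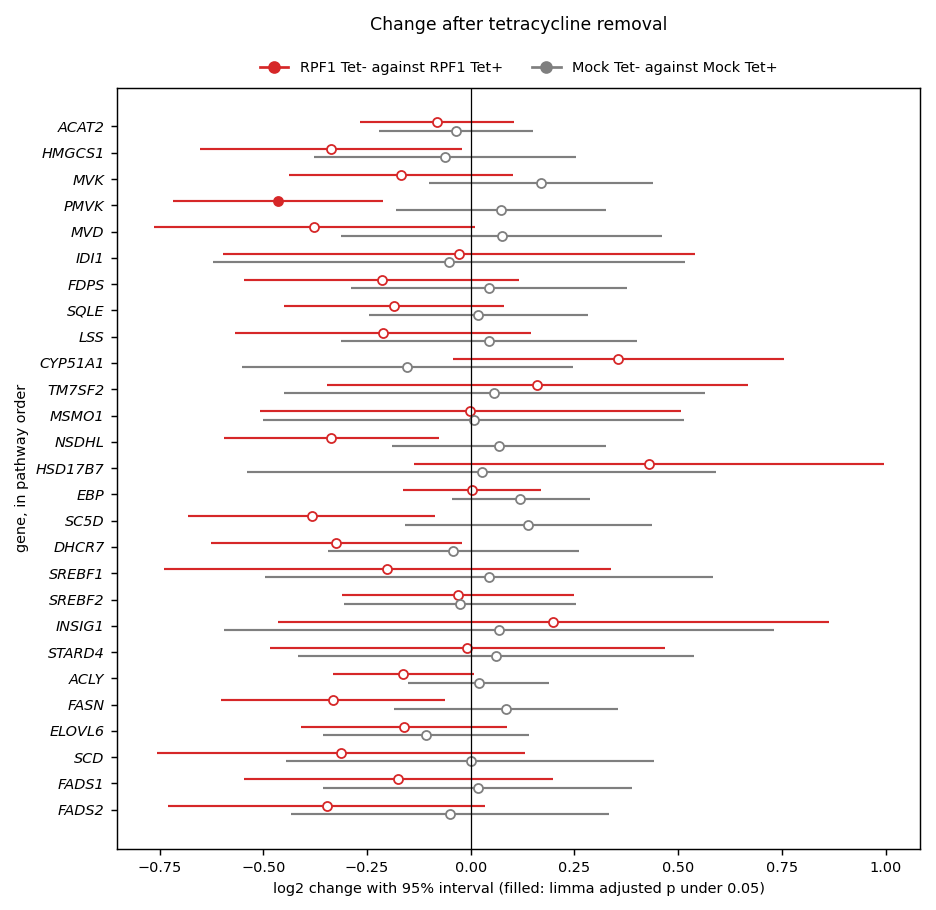
Log2 change after tetracycline removal for the 27 genes in pathway order, with 95% intervals, in the RPF1 line (red) and the Mock line (grey), where a filled point has a limma adjusted p under 0.05. Most red points lie left of 0, PMVK (-0.465) is the 1 filled point, and the grey points lie between -0.15 and 0.17.

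Removal of tetracycline alone, Mock Tet- against Mock Tet+, gave small changes. Limma called 0 of the 27 genes and 0% of all features, with 0 genes of the set and 327 features at an unadjusted p under 0.05. The changes ran from -0.15 to 0.17, with a median of 0.03 and a median size of 0.05, and 18 were positive. Within the set, the smallest unadjusted p-values of the limma fit belonged to EBP (0.14, for a change of 0.12), MVK (0.194, for 0.17) and SC5D (0.327, for 0.14). No gene of the set had groups that did not overlap, against 6.89% of all features. The sign of the median rested on single arrays: it was -0.04 without Mock Tet+ 3 and -0.01 without Mock Tet- 3.

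The difference of the Tet effects, the change in the RPF1 line minus that in the Mock line, tests whether the RPF1 line responded otherwise. None of the 27 genes was called by limma, beside 5.13% of all features. At an unadjusted p under 0.05 were 4 genes, all lower, beside 2532 of all 13228 features (1254 higher, 1278 lower). The smallest p-values in the set were those of PMVK (-0.54, adjusted p = 0.0918), SC5D (-0.52, adjusted p = 0.161) and NSDHL (-0.40, adjusted p = 0.213). The median difference was -0.20, with 22 of 27 negative. Without RPF1 Tet+ 3 the median was -0.11 and without RPF1 Tet- 1 it was -0.12, while without RPF1 Tet+ 2 it was -0.33. The chip block, which rests on Mock Tet+ 3 alone and RPF1 Tet- 1 alone, gave a median of -0.48. On these arrays the set's median deviation was the lowest of its group (-0.06 and -0.23). A PMVK response different from that of the Mock line was thus not shown, although limma with array weights gave PMVK an adjusted p of 0.0326 and SC5D one of 0.0367.

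The uninduced RPF1 line was then set against the Mock line, both with tetracycline. ACAT2 and SQLE were higher in RPF1 Tet+ and were the only genes called, 2 of 27 beside 15.1% of all features (7.63% higher, 7.49% lower). ACAT2 read 14.08, 13.97 and 14.15 in RPF1 Tet+ and 13.50, 13.32 and 13.40 in Mock Tet+. The 3 RPF1 arrays all lay above the 3 Mock arrays, by a log2 change of 0.66 ± 0.08 (SE; limma adjusted p = 0.000848), or 1.58-fold. With chip as a block, which leaves Mock Tet+ 3 alone for the Mock group, ACAT2 was at 0.67 (adjusted p = 0.0371) and was the 1 gene called, beside 2.24% of features. On the second chip alone its adjusted p was 0.0632 and 0 genes were called, beside 0.99% of features.

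SQLE read 11.14, 10.97 and 11.32 in RPF1 Tet+ and 10.80, 10.46 and 10.73 in Mock Tet+. These groups did not overlap either, and the change was 0.48 ± 0.12 (SE; limma adjusted p = 0.0211), or 1.40-fold. It was not called with chip as a block (0.42, adjusted p = 0.245) or on the second chip (adjusted p = 0.243). Left out in turn, Mock Tet+ 2 (0.38, adjusted p = 0.0704), RPF1 Tet+ 1 (0.48, adjusted p = 0.0579) and RPF1 Tet+ 3 (0.39, adjusted p = 0.0768) each ended the call, as did fitting only the arrays compared (adjusted p = 0.0563). HMGCS1 was lower but missed the threshold (-0.43, limma adjusted p = 0.0652). It was called, also as lower, with the authors' values, no background correction, a detection p under 0.01 on all arrays, array weights or RPF1 Tet+ 3 left out. The median change of the set was 0.08, against 0.005 over all features, and turned to -0.03 without RPF1 Tet+ 3. Groups did not overlap for 5 genes, against 34.2% of all features.

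The induced RPF1 line was compared with the Mock line, both without tetracycline. Of 27 genes 8 were called, 2 higher and 6 lower, beside 31.3% of all features, 15.8% higher and 15.5% lower, so the share called was near the background. ACAT2 and CYP51A1 were higher, and HMGCS1, MVK, PMVK, DHCR7, SREBF1 and ACLY were lower. The median change was -0.25, against -0.003 over all features, with 17 of 27 negative, and was -0.12 without RPF1 Tet- 1. Groups did not overlap for 11 genes, against 45% of all features. The chip block, with RPF1 Tet- 1 alone for the induced group, called 4 genes (9.5% of features) and the second chip alone called 4 (8.45% of features). Left out singly, Mock Tet- 1, 2 and 3 gave 9, 4 and 2 calls, beside 26.5%, 22.6% and 22.6% of all features. Without RPF1 Tet- 1, 2 and 3 there were 5, 8 and 5 calls, beside 29.4%, 26.4% and 24.7%.

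HMGCS1 read 13.80, 14.20 and 14.14 in RPF1 Tet- and 14.64, 14.79 and 14.83 in Mock Tet-. Every RPF1 array lay below every Mock array, and the change was -0.71 ± 0.14 (SE; limma adjusted p = 0.0036), or 1.64-fold lower. RPF1 Tet- 1 alone, as in the chip block, gave -0.96 (adjusted p = 0.0174). With tetracycline HMGCS1 read 14.47, 14.06 and 14.62 in the RPF1 line and 14.85, 14.74 and 14.86 in the Mock line. ACAT2 read 13.92, 14.03 and 14.02 in RPF1 Tet- and 13.26, 13.41 and 13.44 in Mock Tet-. Its change was 0.62 ± 0.08 (SE; limma adjusted p = 0.000368), or 1.54-fold higher, and RPF1 Tet- 1 alone, as in the chip block, gave 0.55 (adjusted p = 0.0304). The pair of genes at the entry of the pathway thus differed from the Mock line in opposite directions. Neither call was lost here when a single array was left out, nor under the alternatives that kept more than 1 array of RPF1 Tet-. The chip block and the second chip alone rest on RPF1 Tet- 1 alone and are no check against the chip.

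SREBF1 had a change of -0.71 ± 0.25 (SE; limma adjusted p = 0.0472), from the RPF1 Tet- and Mock Tet- values above, which did not overlap. The chip block, in which RPF1 Tet- rests on its low array 1, gave -1.31 (adjusted p = 0.0115). The SREBF1 call was lost without Mock Tet- 1, 2 or 3 (adjusted p = 0.127, 0.0598 and 0.112), without RPF1 Tet- 1 (-0.41, adjusted p = 0.144) or without RPF1 Tet- 3 (adjusted p = 0.0759). It was also lost with no detection filter (adjusted p = 0.0583), with a replicate block (adjusted p = 0.0755) and when only the arrays compared were fitted (adjusted p = 0.0813). SREBF2 differed by 0.22, which was not called (95% interval -0.06 to 0.50).

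CYP51A1 read 11.85, 12.61 and 12.05 in RPF1 Tet- and 11.63, 11.41 and 11.49 in Mock Tet-, and 11.73, 11.62 and 12.09 in RPF1 Tet+ and 11.69, 11.79 and 11.51 in Mock Tet+. Without tetracycline the groups did not overlap, with a change of 0.66 ± 0.18 (SE; limma adjusted p = 0.0178). The call was lost with chip as a block (0.34, adjusted p = 0.402), on the second chip (adjusted p = 0.314), without Mock Tet- 2 (adjusted p = 0.0607) and without Mock Tet- 3 (adjusted p = 0.0522). DHCR7 read 11.75, 12.06 and 11.95 in RPF1 Tet- and 12.26, 12.39 and 12.68 in Mock Tet-, and 12.37, 12.09 and 12.28 in RPF1 Tet+ and 12.71, 12.33 and 12.41 in Mock Tet+. Its change without tetracycline was -0.52 ± 0.14 (SE; limma adjusted p = 0.0149), again without overlap. The DHCR7 call was lost with chip as a block (-0.69, adjusted p = 0.0583), on the second chip (adjusted p = 0.0659), without Mock Tet- 3 (adjusted p = 0.0635) and without RPF1 Tet- 1 (adjusted p = 0.0521).

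MVK read 8.17, 8.48 and 8.20 in RPF1 Tet- and 8.72, 8.67 and 8.87 in Mock Tet-, and 8.59, 8.21 and 8.55 in RPF1 Tet+ and 8.65, 8.44 and 8.67 in Mock Tet+. The groups without tetracycline did not overlap, and the change was -0.47 ± 0.12 (SE; limma adjusted p = 0.0137). It was not called with chip as a block (-0.59, adjusted p = 0.0737), on the second chip (adjusted p = 0.0817) or without Mock Tet- 3 (adjusted p = 0.0563). PMVK had a change of -0.35 ± 0.12 (SE; limma adjusted p = 0.0376) that became -0.20 under a chip block (adjusted p = 0.498; 0.467 on the second chip alone) and lost its call with only the arrays compared (adjusted p = 0.0892). Without Mock Tet- 2, Mock Tet- 3, RPF1 Tet- 2 or RPF1 Tet- 3 its adjusted p was 0.118, 0.124, 0.125 and 0.0564. ACLY had a change of -0.25 ± 0.08 (SE; limma adjusted p = 0.029), or -0.30 under a chip block (adjusted p = 0.157; 0.178 on the second chip alone), and was not called after median scaling (adjusted p = 0.063) or with only the arrays compared (adjusted p = 0.0792). Without Mock Tet- 2, Mock Tet- 3, RPF1 Tet- 1 or RPF1 Tet- 3 its adjusted p was 0.0644, 0.113, 0.0763 and 0.0728. Calls of both PMVK and ACLY were thus lost without any 1 of 4 of the 6 arrays compared. A replicate block also ended both calls (limma adjusted p = 0.0591 for PMVK and 0.0562 for ACLY).

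Among the genes not called in RPF1 Tet- against Mock Tet-, FASN (-0.34), SC5D (-0.34), NSDHL (-0.31) and ELOVL6 (-0.26) were lower and SQLE (0.28) higher at unadjusted p of 0.0184, 0.027, 0.0232, 0.0389 and 0.0408 (limma). SCD (-0.41), FADS2 (-0.33) and FADS1 (-0.03) also had negative changes, so all 6 fatty acid genes had one. FADS2 with a chip block (-0.74, limma adjusted p = 0.0369) and MVD on the second chip (-0.63, limma adjusted p = 0.0486) passed the threshold on RPF1 Tet- 1 alone, the lowest array of the group for both genes. HSD17B7 (0.44), IDI1 (0.33), TM7SF2 (0.29), INSIG1 (0.24) and FDPS (0.07) had positive changes, and STARD4 (-0.32), LSS (-0.31), MVD (-0.23) and EBP (-0.04) negative ones. MSMO1 stood at 0.02. The intervals of HSD17B7, IDI1, TM7SF2, INSIG1 and STARD4 each spanned 0.

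**Figure D3:**
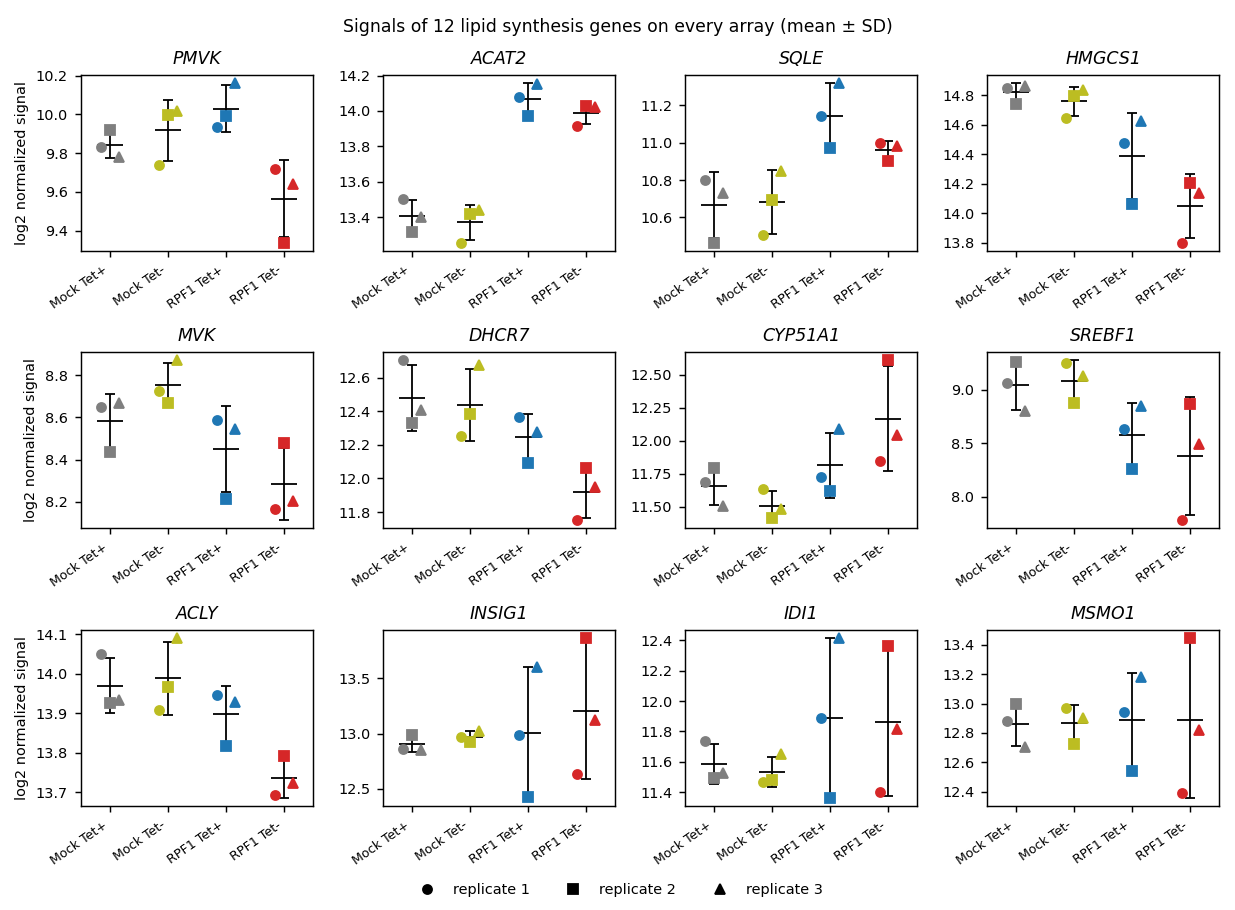
Log2 normalized signal of 12 genes on every array, by group, with the mean (long bar) and SD (whiskers), where circle, square and triangle are replicates 1, 2 and 3 and each panel has its own axis. ACAT2 lies higher in both RPF1 groups, PMVK and HMGCS1 lie lowest in RPF1 Tet-, and INSIG1, IDI1 and MSMO1 spread more within the RPF1 groups than within the Mock groups.

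**Figure D4:**
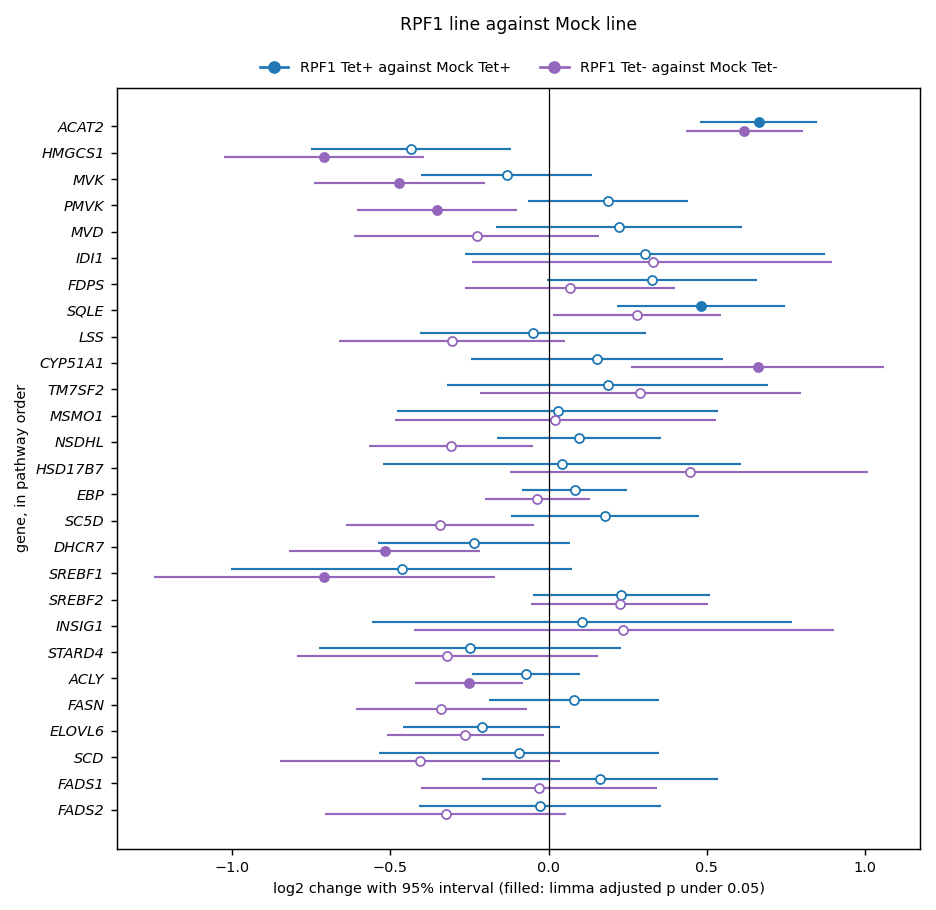
Log2 change of the RPF1 line against the Mock line for the 27 genes in pathway order, with 95% intervals, with tetracycline (blue) and without it (purple), where a filled point has a limma adjusted p under 0.05. ACAT2 is filled in both (0.66 and 0.62), SQLE with tetracycline only, and 7 further genes without tetracycline only; whether these differ between the conditions is the difference of the Tet effects, which called none.

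Several probes read 4 of the genes, and for LSS a call depended on the probe. The probe with the highest mean (ILMN_1715024) had a change of -0.05 in RPF1 Tet+ against Mock Tet+ and of -0.31 in RPF1 Tet- against Mock Tet-. Another LSS probe (ILMN_1753269) read 8.22, 8.34 and 8.61 in RPF1 Tet+ and 7.47, 7.68 and 7.87 in Mock Tet+. Without tetracycline that probe read 8.43, 8.72 and 8.75 in the RPF1 line and 7.69, 7.82 and 7.70 in the Mock line. It was higher in the RPF1 line by 0.72 ± 0.13 (SE; limma adjusted p = 0.00552) with tetracycline and by 0.90 ± 0.13 (adjusted p = 0.000576) without. These come from the fit of all 14752 kept probes, which called 14.5% and 30.4% of probes in these comparisons. The third LSS probe (ILMN_1658271) changed by 0.08 and 0.001. The direction for LSS is therefore uncertain. A second MSMO1 probe had a change of -0.32 after induction (adjusted p = 0.151), where the probe used was at -0.001. The other detected SC5D probe changed by -0.12 after induction, where the probe used was at -0.38. In the difference of the Tet effects these SC5D probes were at -0.08 and -0.52. In RPF1 Tet+ against Mock Tet+ they were at -0.39 and 0.18, and without tetracycline at -0.47 and -0.34.

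Further genes around the pathway were read from 4 lists. Beside their counts stand the shares of all features called: 13.4% after induction (6.67% higher, 6.72% lower), 15.1% between the lines with tetracycline and 31.3% without it. Of 29 further sterol and SREBP pathway genes 22 were tested, and after induction 1 of the 22 was called, NPC2, a lysosomal cholesterol carrier, which rose by 0.35 (limma adjusted p = 0.0159). Their median change was -0.01, close to that of all features. NPC2 was also higher in RPF1 Tet- than in Mock Tet- (0.45, adjusted p = 0.00196), where 3 of the 22 genes were called higher and 2 lower, beside 31.3% of all features. LIPA, the lysosomal acid lipase, was lower there (-0.45, adjusted p = 0.0475), and MBTPS2, a protease that releases the SREBP factors, higher (0.40, adjusted p = 0.0138). In RPF1 Tet+ against Mock Tet+ the 1 call was SCAP, the SREBP escort protein (0.25, adjusted p = 0.0408). MBTPS2 alone of these passed the threshold with a chip block (0.59, adjusted p = 0.0301), there on RPF1 Tet- 1 alone; NPC2 had an adjusted p of 0.339 after induction and 0.0967 between the lines, LIPA 0.143 and SCAP 0.146.

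Of 37 further fatty acid synthesis genes 28 were tested, and induction called 2 higher and 1 lower, beside 13.4% of all features. ELOVL2, an elongase of polyunsaturated chains, fell by 0.57 (limma adjusted p = 0.0148), while OXSM, a mitochondrial fatty acid synthase, rose by 0.39 (adjusted p = 0.0152) and TECR, an elongation reductase, by 0.28 (adjusted p = 0.0358). None was called under a chip block (adjusted p = 0.167, 0.238 and 0.561). Between the lines with tetracycline 1 was higher and 5 were lower, beside 15.1% of all features called, led by ELOVL2 (0.90), GPAM (-0.58), a glycerol phosphate acyltransferase, and ACSL1 (-0.47), an acyl-CoA synthetase. Without tetracycline 6 were higher and 5 lower, beside 31.3%, among them ELOVL5 (0.76), MECR (-0.74) and AGPAT2 (-0.49). Those 6 named values had limma adjusted p between 0.00157 and 0.0154, and with chip as a block between 0.0534 and 0.226.

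Of 16 LXR and cholesterol efflux genes 11 were tested, and induction called 2, both higher, beside 6.67% of all features called higher. APOE, a lipid-carrying apolipoprotein, rose by 0.60 (limma adjusted p = 0.0118) and RXRA, a partner receptor of LXR, by 0.41 (adjusted p = 0.0105), with adjusted p of 0.346 and 0.133 with chip as a block. APOE was also higher in the RPF1 line than in the Mock line with tetracycline (1.19, adjusted p = 0.000471) and without it (1.78, adjusted p = 6.5e-06). In the chip block, on Mock Tet+ 3 alone and on RPF1 Tet- 1 alone, these were 1.08 (adjusted p = 0.0163) and 1.52 (adjusted p = 0.00115). RXRB was higher too, by 0.66 with tetracycline (adjusted p = 0.00154) and 0.51 without (adjusted p = 0.00195), with adjusted p of 0.00854 and 0.0342 on the same single arrays of the block. On the second chip alone these were 0.0342 and 0.0604, so the call without tetracycline was lost. SMPDL3A was higher with tetracycline (0.41, adjusted p = 0.00881; 0.217 with the block) and MYLIP without (0.67, adjusted p = 0.0152; 0.269 with the block). In all, 3 were higher and 1 lower with tetracycline, beside 15.1% of all features called, and 3 higher and 0 lower without, beside 31.3%.

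Of 27 fatty acid oxidation genes 25 were tested, and induction called 4, all lower, beside 6.72% of all features called lower. EHHADH, a peroxisomal oxidation enzyme, ECI1, an enoyl-CoA isomerase, and ACADL, an acyl-CoA dehydrogenase, fell by 0.48 (limma adjusted p = 0.0141), 0.48 (adjusted p = 0.00865) and 0.50 (adjusted p = 0.0381). Under a chip block their adjusted p was 0.0652, 0.129 and 0.114. EHHADH was also the 1 gene of these lists called in the difference of the Tet effects (-0.63, limma adjusted p = 0.0413). That is 1 of the 25 oxidation genes and 0 of the 22, 28 and 11 genes tested in the other lists. Beside it, 5.13% of all features were called. With the chip block, on Mock Tet+ 3 alone and RPF1 Tet- 1 alone, the value of EHHADH was -0.80 and its call was lost. PPARGC1A, a coactivator of oxidative metabolism, was lower in the RPF1 line, at -1.30 with tetracycline (adjusted p = 0.00597; 0.0631 with the block) and -1.92 without (adjusted p = 0.000229; 0.00453 with the block). In the line comparisons 1 was higher and 3 lower with tetracycline, beside 15.1% of all features called, and 3 higher and 6 lower without, beside 31.3%. ACADL (0.51, adjusted p = 0.0327) and HADHA (-0.47, adjusted p = 0.015) were the others named with tetracycline, and ECI2 (0.67, adjusted p = 0.00499) and ECI1 (-0.59, adjusted p = 0.00136) without. Under the block the adjusted p of ACADL, HADHA and ECI2 was 0.164, 0.209 and 0.158. That of ECI1 was 0.0385 on RPF1 Tet- 1 alone, and 0.0696 on the second chip, where its call was lost. Tetracycline removal in the Mock line called 0 genes of the 4 lists by limma, with 1 at an unadjusted p under 0.05, beside 327 of all 13228 features.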

How the data were processed

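Total RNA of 12 samples was measured on Illumina bead arrays with signals from BeadStudio, a name taken from the submitters' processing notes, which give no version. The deposited intensity values carry a detection p-value for each probe, per the file headers, and are not normalized. The deposited processed table of intensity values matched a quantile normalization of them (median difference 0.00626%, largest 2.11%) and was an alternative.

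Background was corrected with limma 3.58.1 (R 4.3.3) from the detection p-values with an offset of 16, and values were taken to log2 and quantile normalized. Of 22184 probes 19715 had 1 gene symbol, 2469 had none and 0 had several, and 14752 were kept (detection p under 0.05 on at least 3 arrays). The kept probe with the highest mean stood for a gene. Symbols follow the RefSeq gene table, in which 20 identifiers were not found. No build is named for the probes, so their coordinates are not given. The model had 1 coefficient for each of 4 groups, with 8 residual degrees of freedom and a prior of 3.31, and p-values were adjusted over all 13228 features by Benjamini-Hochberg. The method was tested on simulated data.

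The genes, the lists, the rule for named genes and the alternatives were all chosen with earlier results of these data known. By that rule all 28 genes are accounted for. Values on every array are given for genes called after induction, for the 6 called genes with the largest change in a line comparison and for the 4 with the widest range within a group. Where no gene was called, the 3 smallest p are given, and up to 3 called genes of each list are named. Same-numbered replicates did not deviate together (6 of 18 pairs correlated above 0.1; range -0.401 to 0.415), so the numbers were not taken to pair them. The level of the transfected factor is not reported here.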

Additional observations from a re-analysis of the deposited data

How the results depend on the processing

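Each group had 3 arrays, and chips were not balanced over the groups. The part of either in the number of genes called was not tested. In RPF1 Tet- against RPF1 Tet+, where 1 gene was called, the authors' values, no background correction and array weights each called 3, only the arrays compared and chip as a fixed block each called 0, and leaving out single arrays gave 0 to 2. In the difference of the Tet effects, where none was called, array weights called 2. In RPF1 Tet+ against Mock Tet+, with 2 called, the authors' values, no background correction, a detection p under 0.01 and array weights each called 3, adding HMGCS1 as lower, only the arrays compared and chip as a fixed block each called 1, the second chip alone called 0, and leaving out single arrays gave 1 to 2. In RPF1 Tet- against Mock Tet-, with 8 called, array weights called 13, only the arrays compared 5, the chip block and the second chip alone 4 each, and leaving out single arrays gave 2 to 9. A replicate block, with numbers that did not pair the samples, called 1, 0, 0, 2 and 5 genes in the 5 comparisons in the order given. Beside these it called 10.4%, 0%, 3.22%, 11% and 27.2% of all features. The share of all features called shifted too. After induction it was 13.4% in the main fit, 24.5% with array weights and 7.35% with only the arrays compared. In RPF1 Tet+ against Mock Tet+ the same settings gave 15.1%, 22.6% and 10.9%. In RPF1 Tet- against Mock Tet- they gave 31.3%, 42% and 25.1%, and leaving out single arrays there gave 22.6% to 29.4%. With the authors' values or no background correction the share was 15.4% after induction and 17.2% in RPF1 Tet+ against Mock Tet+. A detection p under 0.01 gave 20.7% in the latter. Leaving out single arrays gave 8.57% to 11.8% after induction and 8.28% to 11.9% in RPF1 Tet+ against Mock Tet+. In the difference of the Tet effects the share was 5.13%, or 11.2% with array weights. The cause of these shifts was not tested, except that fewer arrays enter the smaller fits. Of the values of named genes that were called, 25 of 121 lost the call under these alternatives and 23 of 66 with single arrays left out. Of those not called, 2 of 63 passed the threshold under these alternatives. The direction of 0 called values turned. The median difference of the Tet effects went from -0.20 to -0.48 with chip as a block, on Mock Tet+ 3 alone and RPF1 Tet- 1 alone. The median deviation of the set on RPF1 Tet- 1, which was -0.23, ran from -0.24 with median scaling to -0.17 with the authors' values.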
